A study of Mus musculus with 12 samples.

Results

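Genes that direct the first lineage choices of the embryo were followed through reprogramming: Gata4, Gata6, Sox17, Foxa2, T, Eomes, Cdx2, Mixl1, Hand1 and Elf5. They were taken by symbol from the deposited expression table, where all 10 were present among 24098 genes, by a rule that uses the symbols and no measured value. The libraries were made from mouse embryonic fibroblasts (MEFs) with a GFP cassette behind Oct4, infected with retroviruses for Oct4, Sox2, Klf4 and c-Myc (OSKM). D0, the fibroblast culture of day 0, was labelled WT and not sorted, and D3 was unsorted at day 3 after induction. D6T-, D6T+, D9T- and D9T+ were sorted at days 6 and 9 into cells without and with Thy-1, a fibroblast surface protein. D12S+, D12S-, D16S+ and D16S- were sorted at days 12 and 16 by SSEA-1, a carbohydrate antigen on the surface of mouse pluripotent cells. Thy-1- and SSEA-1+ cells were treated by the study as the successful route and the other fractions as the unsuccessful route. Induced pluripotent stem cells (iPSCs), given as fully reprogrammed, and mouse embryonic stem cells of the line ESD3 (mESCs), labelled WT, were the end points. Per the labels, reprogramming was done without feeders in a medium with LIF, bFGF, ascorbic acid and CHIR99021 (FF medium), in which iPSCs and mESCs were grown too. For iPSCs and ESD3 cells the study's methods instead give a serum or a serum replacement medium with LIF, with no bFGF or CHIR99021 listed. They name both of these beside FF medium for reprogramming, so the medium of each library is not settled. Each of the 12 conditions had 1 library and no replicate, and embryonic fibroblasts are a mixed primary population.

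Gata6, Gata4 and Sox17 mark primitive endoderm, the layer that forms the yolk sac, and Gata4 and Gata6 return in the heart. Eomes, T and Mixl1 are switched on in the primitive streak, from which mesoderm and definitive endoderm arise, and Foxa2 marks the node and definitive endoderm. Cdx2, Eomes and Elf5 maintain trophoblast stem cells, the source of the placenta, while Hand1 drives trophoblast giant cells and is also used in lateral mesoderm and heart. In pluripotent cells such genes are generally held at low levels in a poised state and are switched on when the cells differentiate.

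The libraries matched their labels in outline. The summed level of 6 fibroblast genes (Col1a1, Col1a2, Col3a1, Thy1, Twist1 and Postn) was 7149 FPKM in D0 and 32.7 to 53.4 in D16S+, iPSCs and mESCs. The sum of 6 pluripotency genes (Nanog, Esrrb, Zfp42, Dppa5a, Tdgf1 and Dppa3) was 1.88 FPKM in D0 and 3002 to 4387 FPKM in those last 3 libraries, with 111 in D16S-. Of 5 leukocyte genes, Ptprc stayed at or under 0.425 FPKM everywhere and was listed at 0 in D16S+, iPSCs and mESCs, whereas Laptm5 and Cd68 reached 57.3 and 115 FPKM in D16S-, and the summed level of the list ran from 15.7 in D0 to 174 in D16S-. The other leukocyte genes, Tyrobp and Fcer1g, were highest in D0 (3.38 and 1.84 FPKM) and at 0.897 and 0.0915 FPKM in D16S-. Of 5 endothelial genes, with sums of 14.8 to 60.8 FPKM, Tek was highest in D9T- (16.5 FPKM) and Tie1 in iPSCs (7.39 FPKM), while Emcn did not exceed 0.253 FPKM. Cdh5 was highest in D0 (11.8 FPKM, with 0.168 in D6T-), and Egfl7 made up most of the sum in D0 and mESCs (13.6 and 58.5 FPKM). The part of these cell types in the results was not tested. The depth was estimated from the steps between low values at 19900000 fragments in D9T+, the shallowest library, to 32200000 in D6T-, the deepest.

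FPKM are fragments scaled to the length of the transcript and to the mapped fragments of the library, so levels of different genes are comparable. The interval that the authors' software gave to each FPKM reached down to 0 in all 120 member values, and no 2 libraries are separated by it. Fragments behind each value were therefore estimated, and the intervals below are exact 95% Poisson intervals on them. They cover counting error only, and no biological spread is known. Differences are on the log2(FPKM + 1) scale, with 2-fold (a difference of 1) as the threshold. No test was made.

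Of the 10 genes, 3 stayed under 1 FPKM in all 12 libraries (Foxa2, T and Mixl1), beside 41.2% of all genes in the table. The other 7 passed the filter of 1 FPKM in at least 1 library. Hand1 and Eomes met the definition of lasting activation, at least 2-fold above D0 in some library of days 3 to 16 and again in iPSCs. This class held 14.4% of the 14178 genes that passed the filter. Elf5 met the definition of transient, 2-fold above D0 in a library of the course, here D16S- alone, but not in iPSCs (17.1% of genes). Gata4, Sox17 and Cdx2 rose 2-fold only in an end point library (7.96%), and Gata6 met none of the definitions (41.0%). The class of genes 2-fold lower than D0 in iPSCs and higher in no library, which held 19.5% of genes, had 0 of the 10. On this scale a gene under 1 FPKM in D0 cannot be called lower. Among the 10 only Gata6 was above that level in D0, so this count says little about the others. With a pseudocount of 0.1 in place of 1, Gata4, Sox17 and Cdx2 were lasting, and at 4-fold Gata4 alone of these 3 stayed in the end point class. Elf5 reached 1 FPKM by a small margin (1.11 FPKM in D16S-), and Foxa2 missed it by a small margin (0.951 in mESCs).

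**Figure D1:**
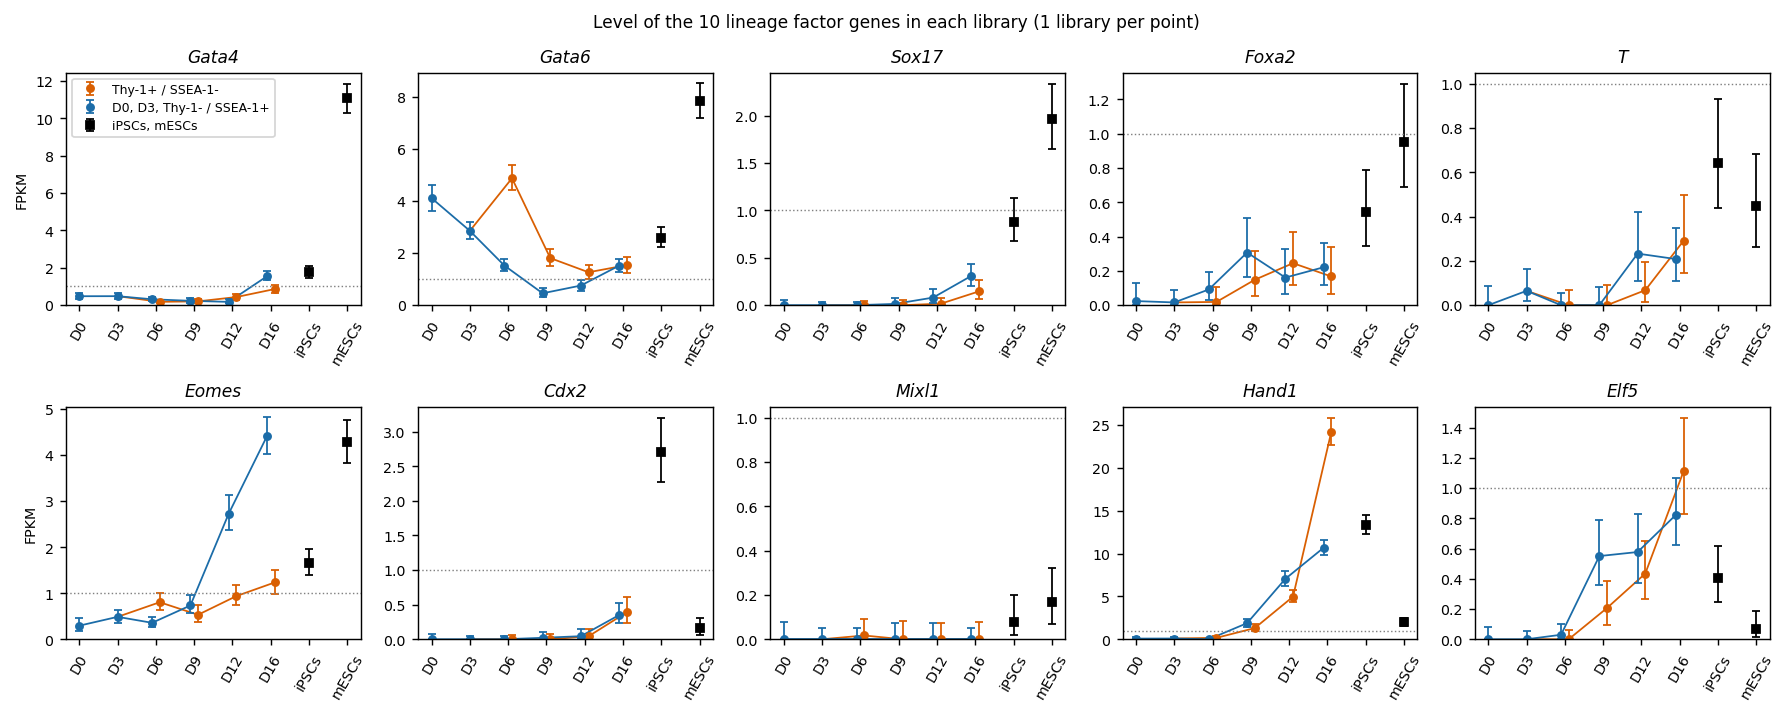
FPKM (linear vertical axis, different in each panel) of the 10 genes in the 12 libraries, ordered by day and end point. Points are single libraries, bars the 95% counting interval, the dotted line 1 FPKM. Hand1 rose in both fractions from day 9 to 24.2 FPKM in D16S-, Eomes rose mainly in the SSEA-1+ libraries, and Gata4, Gata6 and Sox17 were highest in mESCs.

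Sequences of transcription start regions are shown for the 3 activated genes that have an entry in the RefSeq promoter table (build GRCm38.p6, 250 bases before to 50 after the start, 300 in all). Elf5, Eomes and Cdx2 fell in 3 different classes above. CG, the dinucleotide that carries DNA methylation in mammals, was counted in each window, and its relation to the classes was not tested. Each CG is in capitals, all other letters are lower case, and the sequences read 5′ to 3′ on the strand of the gene.
Elf5, upstream start, chr2:103411848-103412147, plus strand: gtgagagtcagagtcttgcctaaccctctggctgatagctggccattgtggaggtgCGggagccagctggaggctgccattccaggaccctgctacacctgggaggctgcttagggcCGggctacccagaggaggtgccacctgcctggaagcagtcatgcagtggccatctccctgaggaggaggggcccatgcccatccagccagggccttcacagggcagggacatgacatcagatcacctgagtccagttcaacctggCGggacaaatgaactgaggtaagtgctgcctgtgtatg
Elf5, downstream start, chr2:103423818-103424117, plus strand: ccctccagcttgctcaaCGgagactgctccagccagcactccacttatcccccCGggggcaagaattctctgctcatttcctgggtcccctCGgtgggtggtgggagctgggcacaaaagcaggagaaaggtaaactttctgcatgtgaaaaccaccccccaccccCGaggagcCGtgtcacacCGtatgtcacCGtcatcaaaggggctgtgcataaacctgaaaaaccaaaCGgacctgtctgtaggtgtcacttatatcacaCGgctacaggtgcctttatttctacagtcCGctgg
Eomes, chr9:118477939-118478238, plus strand: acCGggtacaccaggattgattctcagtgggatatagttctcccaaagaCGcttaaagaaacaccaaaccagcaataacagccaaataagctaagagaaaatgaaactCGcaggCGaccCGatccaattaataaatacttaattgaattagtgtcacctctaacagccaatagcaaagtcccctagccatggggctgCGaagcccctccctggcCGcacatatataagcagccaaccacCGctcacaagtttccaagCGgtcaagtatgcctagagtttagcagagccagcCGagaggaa
Cdx2, chr5:147307200-147307499, minus strand: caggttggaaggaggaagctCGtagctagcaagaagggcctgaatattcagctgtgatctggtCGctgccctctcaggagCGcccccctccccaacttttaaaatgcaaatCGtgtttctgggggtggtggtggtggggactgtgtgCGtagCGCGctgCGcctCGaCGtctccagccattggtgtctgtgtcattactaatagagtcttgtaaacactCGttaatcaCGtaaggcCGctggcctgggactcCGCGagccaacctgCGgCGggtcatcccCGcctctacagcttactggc
The upstream Elf5 window held 3 CG, and 76.7% of the 32851 windows of that length in the table held at least as many. The downstream Elf5 window and the Eomes window held 10 each (43.5%), and the Cdx2 window held 18 (29.7%). T had 17 CG in its window, and the 3 windows of Foxa2 had 12, 13 and 23. Entries matched 5 of the 10 genes, under the 80% needed, so nothing is stated on the group. The expression values do not separate the 2 starts of Elf5.

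Hand1, a basic helix-loop-helix factor of trophoblast giant cells and lateral mesoderm, reached the highest level of the 10 genes. Its locus in the table is chromosome 11, 57642215 to 57645649, minus strand (mm9, as for the other loci below). It was at 0.0788 FPKM in D0, 0.0878 in D3 and 0.167 in D6T+, about 3, 5 and 8 fragments, and was listed at 0 in D6T-, where 3 fragments would be 0.0516 FPKM. On day 9 it was at 1.88 FPKM in D9T- and 1.30 in D9T+, with overlapping counting intervals. It then went to 7.05 FPKM in D12S+ and 4.97 in D12S-, and to 10.7 in D16S+ and 24.2 in D16S-. The end points were at 13.3 FPKM (iPSCs) and 1.96 (mESCs). The gene was thus near the detection limit until day 6, on from day 9 in both fractions, and highest in a fraction that the study counts as unsuccessful. In bulk cells, more Hand1 per cell and more cells with Hand1 cannot be told apart. The summed leukocyte genes were likewise highest in D16S- (174 FPKM), through Laptm5 and Cd68, with Ptprc at 0.0269 FPKM, and their part in the Hand1 level was not tested.

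From D0, the log2 difference of Hand1 was 1.42 in D9T-, 2.90 in D12S+, 3.44 in D16S+ and 4.55 in D16S-, and 3.73 in iPSCs. It was past 2-fold in every library from day 9 on, mESCs included (1.46). All comparisons with D0 share that library. Among all filtered genes, 12.6% were at least 2-fold higher than D0 in D9T-, 10.0% in D9T+, 15.7% in D12S+, 12.5% in D12S-, 20.0% in D16S+, 12.8% in D16S-, 18.7% in iPSCs and 20.7% in mESCs. In D3, 0 of the 10 genes passed 2-fold, beside 5.76% of filtered genes higher and 8.67% lower. In D6T+ it was also 0, beside 4.83% higher and 4.39% lower. Of the 10, 7 were filtered genes, and the others could not pass 2-fold. Only Gata6 could be called lower, since the other genes were under 1 FPKM in D0. Of the neighbours in the order of the 12 Hand1 levels, 5 of 11 pairs had overlapping counting intervals. D16S-, iPSCs, D16S+, D12S+ and D12S- were each apart from the next, and mESCs and D9T- overlapped.

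Eomes, a T-box factor of trophoblast and primitive streak (chromosome 9, 118387307 to 118395250, plus strand), rose later and mainly in SSEA-1+ cells. It was at 0.295 FPKM in D0, 0.487 in D3, 0.357 in D6T- and 0.734 in D9T-. The level was 2.73 FPKM in D12S+ and 4.41 in D16S+, against 0.938 in D12S- and 1.23 in D16S-. On days 6 and 9 the Thy-1+ cells were at 0.805 and 0.532 FPKM. The gene thus stayed under 1 FPKM until day 9 in every library, and the SSEA-1+ libraries lay above the SSEA-1- libraries of both late days with counting intervals apart.
In iPSCs Eomes was at 1.66 FPKM (1.39 to 1.96) and in mESCs at 4.28 (3.82 to 4.77), the latter overlapping D16S+ (4.03 to 4.82). Its log2 difference from D0 was 1.52 in D12S+, 2.06 in D16S+ and 2.03 in mESCs. In iPSCs it was 1.04, close to the threshold. With the mean of D0 and D3 as the baseline, or with a 4-fold threshold, Eomes was transient.

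Elf5, an ETS factor of trophoblast stem cells (chromosome 2, 103252255 to 103291145, plus strand), was listed at 0 in D0, D3 and D6T+ and was at 0.0297 FPKM in D6T-, about 2 fragments. It was at 0.550 FPKM in D9T- and 0.207 in D9T+, and at 0.577 in D12S+ and 0.435 in D12S-. On day 16 it was at 0.823 FPKM in D16S+ and 1.11 in D16S-, the only library at 1 FPKM. The end points were lower, 0.406 FPKM in iPSCs and 0.0676 in mESCs. The counting interval of iPSCs (0.244 to 0.617 FPKM) lay below those of D16S+ (0.624 to 1.07) and D16S- (0.830 to 1.47), and all 11 neighbours in the order overlapped. Elf5 was the only one of the 10 that met the transient definition, through D16S- alone (1.08 on the log2 scale). With D0 listed at 0 this call needs 1 FPKM, which the D16S- interval includes, so it was not determined by this depth. Day 16 was the last day sampled, so no fall within the course was seen. With a pseudocount of 0.1 it was lasting, and with a 4-fold threshold it was in no class.

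Cdx2, a homeobox factor that specifies trophectoderm (chromosome 5, 148112476 to 148118825, minus strand), passed 1 FPKM only in iPSCs. It was listed at 0 in D0, D3, D6T-, D6T+ and D9T+. The values were 0.0211 FPKM in D9T-, 0.0443 in D12S+ and 0.0429 in D12S-, each from about 1 or 2 fragments. On day 16 it was at 0.350 FPKM in D16S+ and 0.391 in D16S-, which overlapped. The iPSCs were at 2.71 FPKM (2.28 to 3.20, about 138 fragments) and the mESCs at 0.156 (about 7 fragments). The Cdx2 level of iPSCs was 7.75-fold that of D16S+ on the FPKM scale, and its log2 difference from D0 was 1.89.

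Gata4, Gata6 and Sox17, the primitive endoderm factors, had their highest level in mESCs. Gata4, a zinc finger factor (chromosome 14, 63817752 to 63864097, minus strand), was at 0.480 FPKM in D0 and 0.482 in D3. The level was 0.316 FPKM in D6T-, 0.233 in D9T- and 0.177 in D12S+, and it was 0.179, 0.205 and 0.434 FPKM in D6T+, D9T+ and D12S-. On day 16 it was at 1.55 FPKM in D16S+, 3.22-fold the FPKM of D0 and 0.78 above it on the log2(FPKM + 1) scale, and at 0.862 in D16S-. The iPSCs were at 1.77 FPKM (1.48 to 2.09) and the mESCs at 11.1 (10.3 to 11.9). The lowest levels were in D12S+ and D6T+, D16S+ overlapped with iPSCs, and mESCs stood apart from every other library, 3.03 above D0 on the log2 scale.

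Sox17, an HMG box factor of endoderm (chromosome 1, 4481009 to 4487435, minus strand), was also highest in mESCs, from a lower start. It was listed at 0 in D0, D3, D6T-, D6T+ and D9T+, where 3 fragments would be 0.0297 to 0.0481 FPKM. It was at 0.0134 FPKM in D9T-, 0.0803 in D12S+ and 0.310 in D16S+, against 0.0155 in D12S- and 0.146 in D16S-. The iPSCs were at 0.880 FPKM and the mESCs at 1.97 FPKM, the only library past 1 FPKM. The day 16 fractions overlapped in their counting intervals, and each end point lay above them, the mESCs 1.57 above D0 on the log2 scale.

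Gata6, the partner of Gata4 in primitive endoderm (chromosome 18, 11042035 to 11085633, plus strand), was the gene of the 10 with a clear level in fibroblasts. It was at 4.11 FPKM in D0 and 2.85 in D3. It fell to 1.52 FPKM in D6T- and 0.456 in D9T- and was at 0.753 in D12S+ and 1.52 in D16S+. The Thy-1+ cells were at 4.87 FPKM on day 6 and 1.81 FPKM on day 9, and D12S- and D16S- at 1.26 and 1.54 FPKM. The end points were at 2.59 FPKM (iPSCs) and 7.82 (mESCs). The low point was thus D9T-, which overlapped with D12S+, and the level of day 6 cells that kept Thy-1 was not below that of D0.
The log2 difference of Gata6 from D0 was -1.81 in D9T- and -1.54 in D12S+, beside 14.7% and 16.1% of filtered genes at least 2-fold lower. It was -1.02, -1.02, -1.17 and -1.01 in D6T-, D16S+, D12S- and D16S-, beside 14.5%, 20.9%, 11.9% and 11.4% lower. These last 4 calls rest on the scaling. With each library brought to the same total FPKM the differences were -0.77, -0.72, -0.95 and -0.78, under 2-fold. In D6T- 0 of the 10 genes were higher than D0, beside 9.42% of filtered genes, and in D9T+ 0 were lower, beside 7.53%. Of the 10, 7 were filtered genes, and only Gata6 could be called lower, since the others were under 1 FPKM in D0.

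Foxa2, T and Mixl1 gave few fragments. Foxa2, a forkhead factor of node and endoderm (chromosome 2, 147868613 to 147872705, minus strand), had 1 fragment each in D0, D3 and D6T+. It was at 0.0917 to 0.307 FPKM in the other libraries of days 6 to 16, with 0.546 FPKM in iPSCs and 0.951 in mESCs (0.689 to 1.29, about 42 fragments). The Foxa2 interval in mESCs includes 1 FPKM, so its place under that level was not determined by this depth.
T, the T-box factor Brachyury of the primitive streak (chromosome 17, 8627288 to 8635361, plus strand), was listed at 0 in D0, D6T-, D6T+, D9T- and D9T+. It was at 0.0648 FPKM in D3, 0.233 in D12S+, 0.0676 in D12S-, 0.208 in D16S+ and 0.291 in D16S-. Its highest levels were 0.641 FPKM in iPSCs (0.439 to 0.929) and 0.446 in mESCs. Mixl1, a homeobox factor of the streak (chromosome 1, 182623179 to 182627165, minus strand), was listed at 0 in 9 of 12 libraries. It had about 1 fragment in D6T+, 4 in iPSCs and 8 in mESCs (0.166 FPKM). T and Mixl1 had counting intervals wholly under 1 FPKM in every library.

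**Figure D2:**
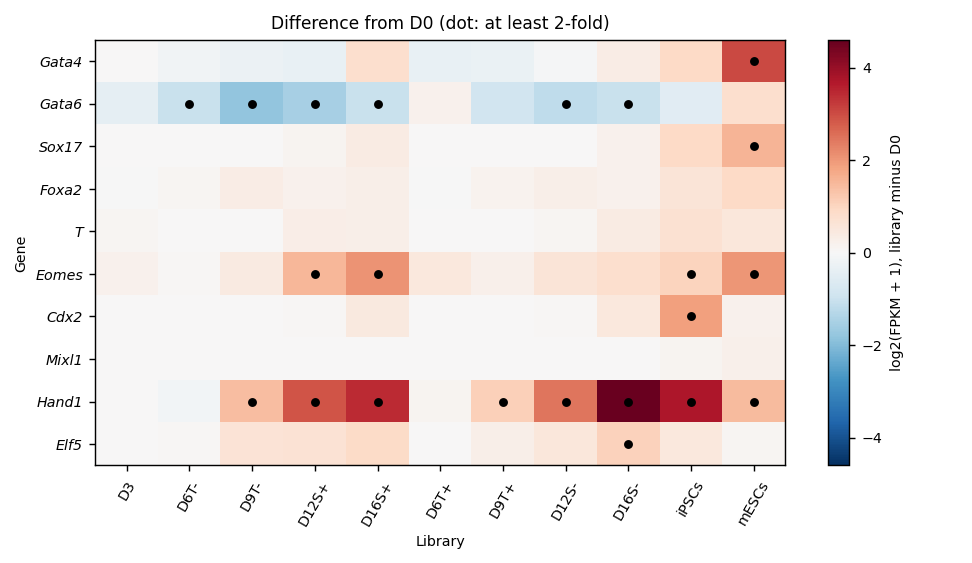
Difference in log2(FPKM + 1) from D0 (colour, scale at right) for the 10 genes (rows) in the other 11 libraries (columns), with dots at a difference of at least 2-fold. Hand1 carries dots from day 9 onwards, Eomes in 4 libraries, and Gata6 is the only gene with dots below D0. The other genes were under 1 FPKM in D0 and could not reach a dot below it.

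By library, D0, D3, D6T-, D6T+ and D9T- each had 1 of the 10 genes at 1 FPKM or more. This was Gata6 in all but D9T-, where it was Hand1. D9T+, D12S+ and D12S- had 2, and D16S+ and D16S- had 4, although their sets differed: Hand1, Eomes and Gata6 were shared, with Gata4 in D16S+ and Elf5 in D16S-. The iPSCs and the mESCs had 5 each, with Gata4, Gata6, Eomes and Hand1 in both, Cdx2 in iPSCs and Sox17 in mESCs. The Sox17 interval in iPSCs (0.674 to 1.13 FPKM) also included 1 FPKM. Of all genes, 46.4% to 49.5% were at 1 FPKM or more in each library.

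To see whether the routes differed, the pair of sorted fractions was compared within each day. On day 6, Gata6 was lower in D6T- than in D6T+ (-1.22 on the log2 scale, 1.52 against 4.87 FPKM), the only one of the 10 genes past 2-fold, beside 2.93% of filtered genes higher and 9.47% lower. On day 9, 0 of the 10 passed the threshold on that scale, beside 1.81% higher and 6.45% lower, with Gata6 the widest at -0.95 (0.456 against 1.81 FPKM). On day 12, 0 were past the threshold, beside 4.79% higher and 3.03% lower, and Eomes was the widest at 0.94. On day 16 Eomes was higher in D16S+ by 1.28, beside 11.8% of filtered genes higher, and Hand1 was lower by 1.11, beside 15.2% lower. The counting intervals of the paired fractions were apart in each of these genes and days. The remaining 8 genes were under the threshold on day 16, with Gata6 at -0.01, Cdx2 at -0.04, Elf5 at -0.21 and Gata4 at 0.45. The added 1 FPKM narrows differences of low genes, and a gene under 1 FPKM in both fractions cannot pass the threshold. On day 6 only Gata6 could therefore pass it, and on day 9 only Gata6 and Hand1. On day 12 only Gata6, Hand1 and Eomes could. In FPKM alone, Gata6 was 3.96-fold and Elf5 2.66-fold apart on day 9, Eomes 2.91-fold on day 12 and Sox17 2.12-fold on day 16. The counting intervals of the fractions overlapped for Elf5 on day 9 and for Sox17 on day 16. Further genes under 1 FPKM were also past 2-fold in FPKM alone, such as Foxa2 on day 9 and T and Gata4 on day 12.

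The step from D16S+ to established iPSCs and the comparison of iPSCs with mESCs followed. Cdx2 was 1.46 higher in iPSCs than in D16S+, beside 4.38% of filtered genes higher, and Eomes was 1.02 lower, beside 7.77% lower. Between the pluripotent lines, Hand1 was 2.27 higher and Cdx2 was 1.68 higher in iPSCs, beside 6.79% of filtered genes. Gata4 was 2.13 and Gata6 was 1.30 higher in mESCs, beside 7.41%. Sox17 and Eomes were also lower in iPSCs, at -0.66 and -0.99, under the threshold. Each line was represented by 1 library, so line and library cannot be told apart.

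**Figure D3:**
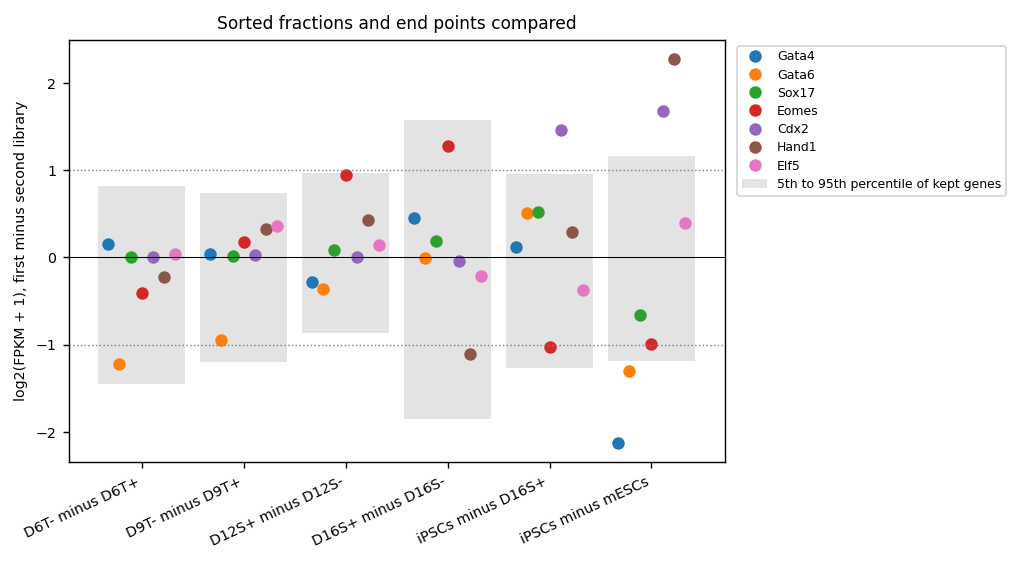
Difference in log2(FPKM + 1) between the libraries named on the horizontal axis (first minus second) for the 7 genes that reached 1 FPKM, with dotted lines at 2-fold and a grey bar from the 5th to the 95th percentile of the 14178 filtered genes. In iPSCs against mESCs, Hand1 (2.27) and Cdx2 (1.68) lie above the bar, and Gata4 (-2.13) and Gata6 (-1.30) below it.

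Profiles were then compared over the 12 libraries, which share a starting culture along the course, by Pearson's r of log2(FPKM + 1). These values are descriptions. Where 1 library holds most of the level of a gene, the genes most like it tend to peak there too. A shared highest library is therefore no separate result. Among the 7 genes past the filter, Gata4 and Sox17 were closest (r = 0.96, n = 12), followed by Hand1 and Elf5 (0.90), and Gata6 and Elf5 were the most opposed (-0.64). The mESC library weighed most in the first of these, with Gata4 at 11.1 and Sox17 at 1.97 FPKM. Their next highest levels were 1.77 and 0.880 FPKM, both in iPSCs. Sox17 passed the filter through mESCs alone, and Elf5 through D16S- alone. Of all filtered genes, those most like Hand1 were 3830417A13Rik (0.989), AI661453 (0.983) and Krt7 (0.982), a keratin of simple epithelia and trophoblast, all highest in D16S-. Those most like Elf5 were Papl, Bbx and Ovol1 (0.971, 0.955 and 0.950). Cdx2 was most like Gm11564, Iqcf1 and Zscan4f (0.988, 0.987 and 0.978), each highest in iPSCs. Zscan4f, of a family active in rare 2-cell-like embryonic stem cells, was at 4.27 FPKM in iPSCs and 0.133 in mESCs.
The genes most like the endoderm factors were all highest in mESCs. They were Fam151a, Klb and 4930502E18Rik for Gata4 (0.988, 0.985 and 0.979), Wdr20rt, Ceacam20 and Slc1a1 for Sox17 (0.994, 0.994 and 0.993), and Fdx1, Ttll1 and Fam104a for Gata6 (0.958, 0.941 and 0.926). For Eomes they were Madcam1, Intu and Rad9b (0.981, 0.979 and 0.977).

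Other genes of the same lineages were counted, to place the 10 factors. Of 18 trophoblast genes, 17 passed the filter, and 12 were at least 2-fold higher in iPSCs than in D0 and 0 lower (median 2.27 on the log2 scale, against 0.03 for all filtered genes). In D16S-, 10 were higher and 0 lower, in D16S+ 11 were higher and 2 lower, and in mESCs 7 were higher and 2 lower. Of all filtered genes, 18.7% were higher and 21.6% lower in iPSCs, and 12.8% and 11.4% in D16S-. The shares were 20.0% and 20.9% in D16S+ and 20.7% and 21.9% in mESCs. Krt7 was at 0.352 FPKM in D0, 76.8 in D16S+, 161 in D16S-, 133 in iPSCs and 5.22 in mESCs. Krt8, the keratin of the first embryonic epithelium, was at 543 FPKM in D16S-, 483 in iPSCs and 26.7 in mESCs. Tfap2c, which acts in trophoblast and germ cells, was highest in D16S+ (65.7 FPKM, against 19.2 FPKM in D16S-), and Esx1, a placental homeobox gene, in iPSCs (15.2 FPKM). Gata2 went from 21.0 FPKM in D0 to 13.0 in iPSCs, and Cited2 from 54.5 to 38.7 FPKM. Keratins of this list are also general epithelial genes. Comparing iPSCs with mESCs, 7 of the 17 genes were higher in iPSCs and 0 lower, beside 6.79% and 7.41% of filtered genes.

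Of 18 primitive and visceral endoderm genes, 16 passed the filter. Against D0, 3 were higher and 7 lower in iPSCs, 6 higher and 7 lower in mESCs, and 3 higher and 8 lower in D16S+. Of all filtered genes, 18.7% were higher and 21.6% lower in iPSCs, 20.7% and 21.9% in mESCs, and 20.0% and 20.9% in D16S+. In iPSCs and D16S+, 3 of 16 higher is near the share of all genes. Those that fell include genes also used by fibroblasts, such as Pdgfra, from 38.0 FPKM in D0 to 1.07 in iPSCs, and the retinol receptor Stra6, from 65.8 to 1.18 FPKM. Hnf4a, a nuclear receptor of visceral endoderm, was at 3.14 FPKM in mESCs and 0.517 in iPSCs. Lama1, a laminin of the early basement membrane, was at 46.3 FPKM in mESCs and 12.5 in iPSCs. Lrp2, an endocytic receptor of visceral endoderm, ran the other way, at 2.38 FPKM in mESCs and 13.0 in iPSCs. Srgn, a proteoglycan also found in blood cells, peaked at 228 FPKM in D16S-.

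Of 9 definitive endoderm genes, 6 passed the filter, with 1 higher and 1 lower in iPSCs and 3 higher and 1 lower in mESCs than in D0. Of all filtered genes, 18.7% were higher and 21.6% lower in iPSCs, and 20.7% and 21.9% in mESCs. In iPSCs, 1 of 6 is near the share of all genes. Hhex, a homeobox gene of anterior endoderm, was at 0.425 FPKM in D0, 5.65 in iPSCs and 7.31 in mESCs. The chemokine receptor Cxcr4 peaked at 9.87 FPKM in D12S-. Pyy, a gut peptide hormone gene, reached 3.42 FPKM in mESCs. Cer1, a secreted inhibitor, went from 2.39 FPKM in D0 to being listed at 0 in iPSCs, and Gsc from 1.80 to 0.782 FPKM.

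Of 13 primitive streak and early mesoderm genes, 8 passed the filter, with 4 higher and 0 lower in iPSCs and 5 higher and 0 lower in mESCs. Beside these stand 18.7% of filtered genes higher and 21.6% lower in iPSCs, and 20.7% and 21.9% in mESCs. Cdx1, a caudal homeobox gene related to Cdx2, was listed at 0 in D0 and was at 28.0 FPKM in iPSCs and 19.8 in mESCs. Unlike Cdx2 it was high in both. Lefty2, a Nodal inhibitor that is also a gene of pluripotent cells, was at 51.6 FPKM in D16S+, 3.79 in D16S- and 1.58 in iPSCs. Tbx3, which also supports self-renewal of mESCs, was at 14.4 FPKM in D0 and 57.9 in iPSCs, and Mesp2 at 3.64 in mESCs.

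Of 9 cardiac mesoderm genes, 7 passed the filter, with 1 higher and 3 lower in iPSCs and 0 higher and 4 lower in D16S+ than in D0. In mESCs 2 were higher and 3 lower, and in D16S- 0 were higher and 3 lower. Hand2, the relative of Hand1, fell from 3.74 FPKM in D0 to 0.102 in D16S+ and 0.0402 in iPSCs, where Hand1 was above D0. Tnnt2, cardiac troponin T, fell from 33.3 to 0.243 FPKM in iPSCs. Tbx20 was at 1.88 FPKM in iPSCs, and Myh6 and Nkx2-5 at 1.09 and 1.07 in mESCs. Among all filtered genes, 18.7% were higher and 21.6% lower in iPSCs, 20.7% higher and 21.9% lower in mESCs, 20.0% higher and 20.9% lower in D16S+, and 12.8% higher and 11.4% lower in D16S-. The members of each list were chosen with results of these data known, so the counts are descriptions.

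**Figure D4:**
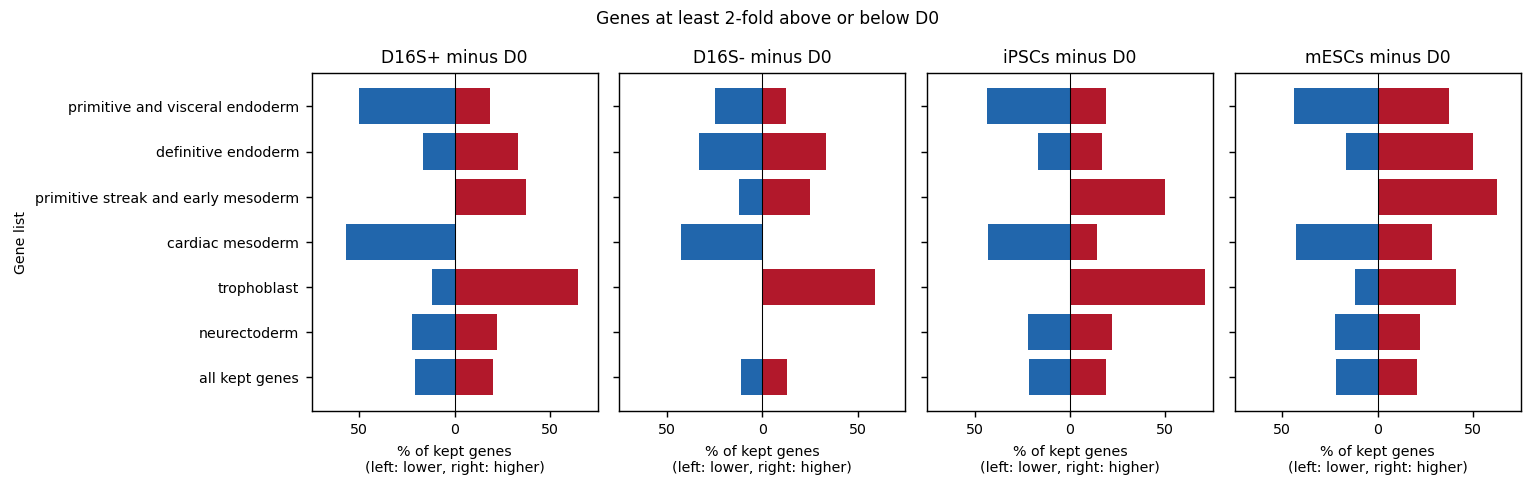
Percentage of the filtered genes of each lineage list, and of all 14178 filtered genes, at least 2-fold higher (right, red) or lower (left, blue) than D0 in 4 libraries. The trophoblast list has 12 of 17 genes higher in iPSCs and 7 of 17 in mESCs, and the cardiac list has 0 of 7 higher in D16S+ and D16S-.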

How the data were processed

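Polyadenylated RNA of 12 conditions was sequenced by the authors from TruSeq libraries, 1 library each. The labels name a stranded kit and the study's methods a TruSeq RNA kit not described as stranded, so whether strand was kept is not settled, and reads of overlapping antisense genes may not be separated. Per the labels and the study's methods, reads were mapped to mm9 with STAR, reads with more than 2 mismatches or more than 1 locus were removed, and expression was estimated with Cuffdiff. Versions, annotation and library scaling are not given in the sources used here. The deposited values are FPKM per gene, with the lower and upper end of an interval. The removal of multiply mapped reads lowers genes with near-identical copies. A further 12 columns of status words were not used.

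Columns were matched to libraries by day and marker sign, and groups came from the titles. Values were analysed as log2(FPKM + 1) in Python 3.11.15 (numpy 2.4.6, pandas 2.3.3, scipy 1.17.1, matplotlib 3.10.9), and genes with at least 1 FPKM in 1 library were kept (14178 of 24098). Without replicates no test was run. An FPKM of exactly 0 is given as listed at 0.

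Depth was estimated from the value of 1 fragment. The most common ratio of low values (under 0.5 FPKM) gave each library's depth relative to D0. The depth of D0 itself came from genes with 1 annotated transcript of at least 2000 bases in GENCODE M1. Member fragments used the annotated transcript length that brought low values nearest to whole numbers, with a mean distance of 0.056 to 0.232 over 7 genes. It was largest in Sox17 (0.232) and Cdx2 (0.213), whose fragment numbers rest on a weaker fit. No value was low enough in Gata4, Gata6 and Eomes, for which the longest length was used. Counts are therefore approximate. The depth step was tested on simulated data with known gene lengths, and the classes on made-up profiles. The choice of transcript length was not tested.

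Members, lineage lists and rules were chosen with earlier results of these data known. The text names all 10 members, the marker genes, up to 4 genes per list with the largest rise over D0 and up to 2 with the largest fall in iPSCs, and the 3 genes most like each member. Some list genes that this rule names are not reported here. Loci come from the table (mm9, 1-based) and strands from GENCODE M1. Promoter windows are RefSeq, build GRCm38.p6, and were not joined to mm9 positions. Alternatives were the pseudocount, the fold and FPKM thresholds, the scaling, the filter, the baseline and the interval end.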

Additional observations from a re-analysis of the deposited data

Results flagged for a closer look

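Hand1 went in opposite directions between the SSEA-1 fractions of days 12 and 16. It was 0.43 higher in D12S+ than in D12S- (7.05 against 4.97 FPKM) and 1.11 lower in D16S+ than in D16S- (10.7 against 24.2 FPKM), both on the log2 scale. The day 12 difference was under the 2-fold threshold. The change between the days was -1.54. With 1 library a fraction, this change was not tested. It rests on 4 libraries with about 199 to 900 estimated fragments of Hand1 each, and the fractions were sorted by the same marker on both days.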

How the results depend on the processing

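Of 80 recomputed counts, 52 stayed within 1.5 times the main count, and 28 moved. Of 30 recomputed differences of single members from D0, 17 stayed within the counting interval and 13 moved, with 0 changes of sign. The median of ratios moved 0 of 24 results. Scaling to the same total shifted the median difference of all filtered genes by 0.16 (iPSCs against D0) and 0.30 (D16S+ against D0). It ended 4 of the 6 calls of Gata6 against D0 and moved no count past 1.5 times.

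At 0.5 FPKM, 1 gene was under the threshold in all libraries, at 2 FPKM 5 were, and by the upper end of the deposited interval 1 was. With a pseudocount of 0.1, 6 genes were lasting, 0 transient and 0 in the end point class. At 4-fold, 1 was lasting, 1 in the end point class and 4 in no class. With the mean of D0 and D3 as baseline, 1 was lasting and 2 were transient. With a pseudocount of 0.1, members at least 2-fold apart numbered 2 on day 6, 2 on day 9 and 1 on day 12 between the fractions, 8 for iPSCs and 8 for mESCs against D0, 5 for iPSCs against D16S+ and 7 for iPSCs against mESCs. At 4-fold they numbered 0 on day 6, 0 on day 16, 1 for iPSCs and 2 for mESCs against D0, 0 for iPSCs against D16S+ and 2 for iPSCs against mESCs. List genes higher in iPSCs than in D0 with that pseudocount numbered 5 for primitive endoderm, 2 for definitive endoderm, 3 for cardiac and 5 for neurectoderm genes. A smaller pseudocount and a higher threshold weigh low genes differently by construction.

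No paired analysis was possible because each condition had 1 library and the labels carry no replicate numbers. Depth limits genes under about 0.1 FPKM, which rest on a few fragments.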

Other observations

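Genes of the neurectoderm, the lineage that none of the 10 factors represents, were described beside them. Of 11 such genes, 9 passed the filter, with 2 higher and 2 lower in iPSCs than in D0, 2 and 2 in D16S+, and 0 and 0 in D16S-. Of all filtered genes, 18.7% were higher and 21.6% lower in iPSCs, 20.0% and 20.9% in D16S+, and 12.8% and 11.4% in D16S-, so 2 of 9 is near the share of all genes in iPSCs and D16S+. Otx2, a homeobox gene of the epiblast and forebrain, was at 0.243 FPKM in D9T-, 19.6 in D12S+ and 31.3 in D16S+, against 0.363 in D12S- and 0.564 in D16S-. It was at 1.81 FPKM in iPSCs and 2.11 in mESCs, below D16S+ in both. Tubb3, a neuronal tubulin also found in dividing cells, peaked at 133 FPKM in D3. Nes, an intermediate filament of progenitor cells, was at 110 FPKM in D16S- and 6.32 in iPSCs. Sox3 reached 3.46 FPKM in mESCs, and Zic1 went from 3.62 in D0 to 0.118 in iPSCs.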
